A study of Mus musculus with 48 samples.

Results

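The cold-inducible RNA-binding protein genes Cirbp and Rbm3, the splicing factor gene Srsf5 and the CDC-like kinase genes Clk1, Clk2, Clk3 and Clk4 were followed in lactating mice kept at a control or a hot temperature. These 7 genes were chosen by name as temperature-regulated RNA-binding and splicing kinase genes, and were found by Ensembl identifier and symbol among the 58913 genes of the expression tables. All 7 had a mean FPKM of at least 1 in each tissue, so all were tested everywhere. FPKM are fragments per kilobase of exon, scaled by the authors' denominator per library, which did not follow recovered depth between tissues.

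The animals were ICR dams, an outbred stock, 10 weeks old and at day 13 of lactation. Control dams were held at 25 °C and heat-stressed dams at 36 °C, both at a relative humidity of 55%, and tissues were taken straight after the exposure, whose length is not given in the sources used here. Total RNA of hypothalamus, pituitary and number 4 mammary gland was sequenced in 8 control and 8 heat libraries per tissue, 48 in all. Nothing in the labels says which libraries came from the same dam or that any were pooled, so p-values measure the spread between these libraries.

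Cirbp and Rbm3 encode small glycine-rich proteins with an RNA recognition motif, and their transcripts accumulate when mammalian cells are cooled mildly and decline when cells are warmed. SR proteins such as SRSF5 bind pre-mRNA and steer the choice of splice sites, and they act according to how many of their serine residues carry phosphate. CLK kinases add those phosphates in the nucleus; their activity rises as temperature falls, and CLK1 and CLK4 are known to be made from transcripts that can retain introns, so that much of their RNA stays in the nucleus until it is spliced after stress.

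Cirbp passed the test as lower with heat in hypothalamus and pituitary, Srsf5 as lower in pituitary, and Clk4 as higher in mammary gland, so their upstream sequences are shown first. The 250 bases before the RefSeq start site are given on the plus strand of GRCm38.p6, at chr10:80167589-80167838 for Cirbp, chr12:80945249-80945498 for Srsf5 and chr11:51262864-51263113 for Clk4. Capitals mark TCCCCGCC, the published mild cold response element, searched on both strands.
Cirbp: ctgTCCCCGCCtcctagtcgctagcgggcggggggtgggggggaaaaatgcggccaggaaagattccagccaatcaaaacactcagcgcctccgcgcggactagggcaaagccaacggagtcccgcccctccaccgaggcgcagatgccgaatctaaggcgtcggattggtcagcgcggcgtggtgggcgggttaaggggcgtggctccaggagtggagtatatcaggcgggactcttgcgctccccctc
Srsf5: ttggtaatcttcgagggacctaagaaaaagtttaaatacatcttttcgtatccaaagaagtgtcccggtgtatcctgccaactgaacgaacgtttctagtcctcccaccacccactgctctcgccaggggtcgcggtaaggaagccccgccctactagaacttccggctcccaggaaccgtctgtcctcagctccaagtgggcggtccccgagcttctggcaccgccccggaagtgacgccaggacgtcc
Clk4: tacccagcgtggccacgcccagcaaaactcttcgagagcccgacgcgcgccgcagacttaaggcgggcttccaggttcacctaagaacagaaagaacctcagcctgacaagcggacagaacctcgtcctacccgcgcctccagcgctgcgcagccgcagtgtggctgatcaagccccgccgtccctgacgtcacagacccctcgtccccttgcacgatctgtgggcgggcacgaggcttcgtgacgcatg
The element lay in the first of the 2 annotated Cirbp start regions, from position -247 to -240 relative to the start site. It was not among the letters of the windows of Srsf5, Clk2, Clk3 or Clk4, and RefSeq entries were matched for 5 of the 7 genes, not for Rbm3 and Clk1. Of 32851 mouse promoter windows of the same length, 4.64% held TCCCCGCC on either strand. The core of the heat shock element, searched as TTCNNGAA or GAANNTTC, occurred in 12.8% of those windows and in none of the windows of the matched genes. A match of letters is a description of the sequence and not a bound site.

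The tissues carried the markers of their labels in the main. Control hypothalamus had Hcrt, the orexin precursor, at a mean of 158 FPKM, and control mammary gland had Csn2, the milk protein beta-casein, at 74221 FPKM. Control pituitary had Pomc at 27652 FPKM and Cga at 812 FPKM, but Prl at only 22.5 FPKM and Gh at 11.3 FPKM. Recovered depth per library was 16272700 to 22166100 fragments for hypothalamus; pituitary libraries held 10893100 to 17246500 and mammary ones 11586400 to 17809300. The heat shock chaperone genes Hspa1a, Hspa1b, Hspb1, Dnajb1 and Hsph1 rose in all 3 tissues, 5 of 5 in each, where 0.559, 2.37 and 2.84% of all genes passed as higher, with Hspa1b rising in hypothalamus from 4.89 to 43.7 FPKM, in pituitary from 3.67 to 286 FPKM and in the gland from 6.23 to 413 FPKM. The labels number the libraries of a group, and what these numbers mark is not given in the sources used here. For some genes numbers 1 to 3 lay apart from numbers 4 to 8 in control and heat groups alike. In hypothalamus the 2 sets did not overlap for Clk3, which lay at 4.67 to 5.54 FPKM in the 6 libraries numbered 1 to 3 and at 8.18 to 12.3 FPKM in the 10 others. In mammary controls the sets overlapped for Srsf5, at 70.0 to 86.5 FPKM in numbers 1 to 3 and 70.2 to 130 in numbers 4 to 8. Each numbered set held both treatments, and heat changes within the sets are given for each of the 7 genes.

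Cirbp (ENSMUSG00000045193) fell in hypothalamus and pituitary. In the hypothalamus the 8 control libraries ran from 29.3 FPKM through a median of 35.0 to 44.3, and the 8 heat libraries from 20.5 through 26.1 to 28.4. Every heat library lay below every control library in deposited FPKM. Counted on values scaled by a library factor, the same held for 0.107% of the genes tested there. The mean went from 35.7 ± 4.94 to 25.2 ± 2.602 FPKM (SD, n = 8 each), a change in log2(FPKM + 1) of -0.46 ± 0.085 (SE) with an adjusted p of 0.0168 (limma, Benjamini-Hochberg over all genes tested). In this tissue 95 of 13957 genes, 0.681%, passed in either direction and 0.122% passed as lower, and Cirbp was the only 1 of the 7 genes to pass. In bulk tissue, fewer cells of a type and less RNA per cell cannot be told apart. The change was -0.16 among numbers 1 to 3 and -0.64 among numbers 4 to 8. In a single fit of all 48 libraries, which pools the spread of the tissues, the hypothalamic change had an adjusted p of 0.306.

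In the pituitary Cirbp had the largest change of the 7 genes in any tissue. Control libraries ran from 42.0 FPKM through 49.9 to 56.1, and heat libraries from 17.1 through 22.9 to 36.9. The groups did not overlap in deposited FPKM, with heat lower throughout. Counted on values scaled by a library factor, the same held for 0.362% of the genes tested there. The mean fell from 49.7 ± 5.60 to 24.2 ± 6.19 FPKM (SD, n = 8 each), a ratio of 0.487 and a log2 change of -1.02 ± 0.12 (adjusted p = 0.000248, limma). The numbered sets gave -1.003 and -1.03, and the call held in each of the 16 fits that left out 1 library.

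In the mammary gland Cirbp was low and more variable. Control libraries ran from 3.45 FPKM through 4.51 to 10.5, and heat libraries from 1.75 through 2.76 to 4.21. All 8 heat libraries lay below the control median, 6 of them below every control, and controls 4 and 5 were far above the other 6 controls. The means were 5.55 ± 2.67 and 2.84 ± 0.83 FPKM (SD, n = 8 each), a ratio of 0.511, with a log2 change of -0.70 ± 0.21 and an adjusted p of 0.059 (limma), which missed the threshold of 0.05. FPKM as deposited, with no further library factor, gave an adjusted p of 0.0499 and quantile normalization gave 0.0423 (limma). Without control library 6 it was 0.0486, and in the single fit of all 48 libraries 0.000731 (limma). The mammary call thus turns on the scaling, on 1 library and on the fit. The change was -0.40 among numbers 1 to 3 and -0.87 among numbers 4 to 8. These values rested on 25 to 215 fragments per library, against 864 to 3776 in the pituitary.

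**Figure D1:**
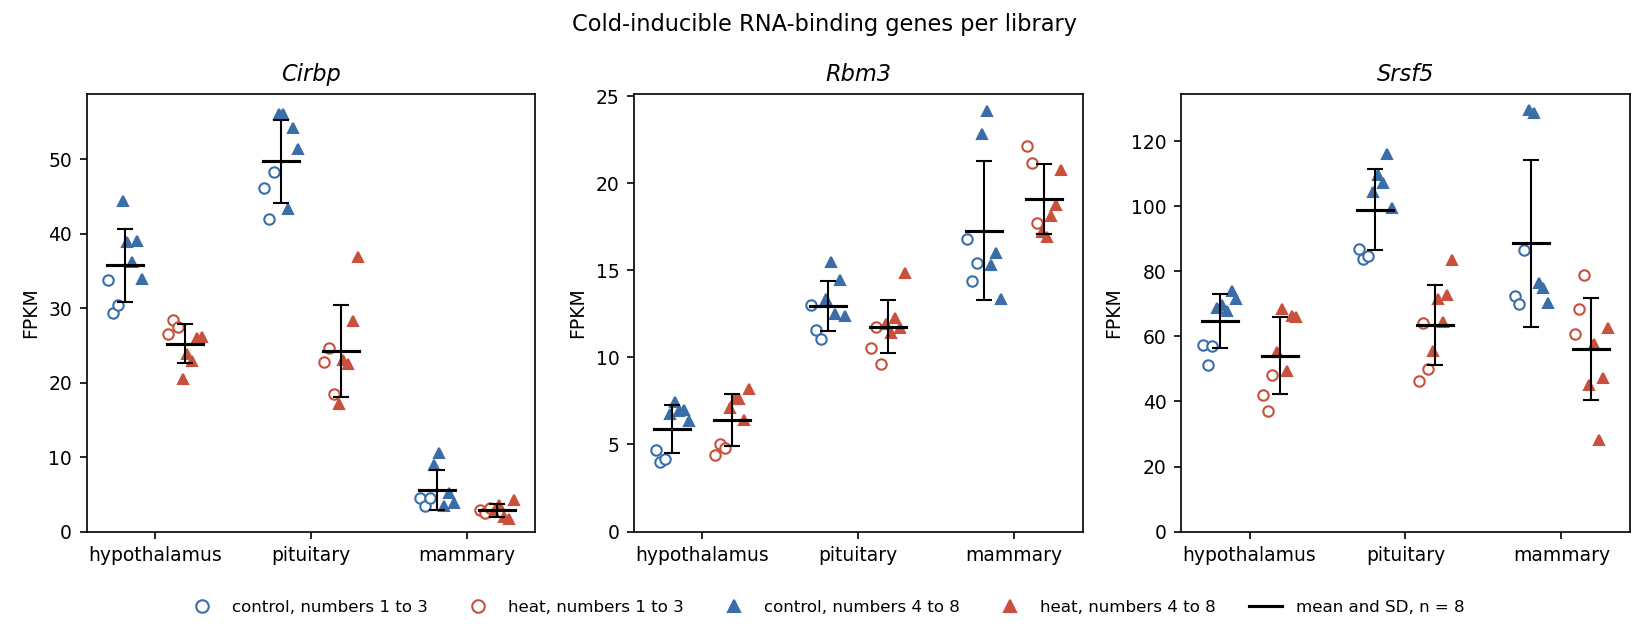
FPKM of Cirbp, Rbm3 and Srsf5 in each library (vertical axes start at 0 and differ between genes), by tissue, with blue for control and red for heat, open circles for libraries numbered 1 to 3 and triangles for 4 to 8; bars are the mean and SD of 8 libraries. Cirbp separates the treatments in hypothalamus and pituitary, Srsf5 in pituitary, and Rbm3 overlaps in every tissue.

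Rbm3 (ENSMUSG00000031167), the close relative of Cirbp, did not pass the test in any tissue. In hypothalamus it ran from 3.99 FPKM through 6.56 to 7.42 in controls and from 4.39 through 6.77 to 8.19 with heat, a log2 change of 0.12 ± 0.14 (adjusted p = 0.999, limma). In pituitary it ran from 11.1 through 12.7 to 15.5 FPKM in controls and from 9.62 through 11.7 to 14.8 with heat, a change of -0.12 ± 0.078 (adjusted p = 0.489, limma). In mammary gland it ran from 13.4 through 15.7 to 24.1 FPKM in controls and from 16.9 through 18.4 to 22.1 with heat, a change of 0.17 ± 0.12 (adjusted p = 0.411, limma). All 8 heat mammary libraries lay above the control median, the opposite side from Cirbp, yet inside the control range. The changes within numbers 1 to 3 and within numbers 4 to 8 were 0.37 and 0.06 in mammary gland; the hypothalamus had 0.13 and 0.11 and the pituitary -0.13 and -0.11. In hypothalamus the numbered sets did not overlap at all for Rbm3, with 3.99 to 5.00 FPKM in numbers 1 to 3 and 6.36 to 8.19 in numbers 4 to 8. The processed pseudogene Rbm3-ps, which could share fragments with Rbm3, held 0.611 to 5.82% of the fragments counted for either.

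The unequal change of these 2 genes was tested within libraries, as log2(FPKM + 1) of Cirbp minus that of Rbm3. Heat moved the difference by -0.58 in hypothalamus, with an exact 2-sided permutation p of 0.00513 over 12870 splits and 0.0103 after Benjamini-Hochberg adjustment over 6 such tests. In pituitary it moved by -0.90 and in mammary gland by -0.87, each with the smallest p that the exact permutation test can give, 0.000155, and an adjusted p of 0.000466. As a plain ratio, Cirbp over Rbm3 went from a mean of 6.23 ± 0.971 to 4.22 ± 1.38 in hypothalamus, from 3.85 ± 0.344 to 2.05 ± 0.336 in pituitary, and from 0.308 ± 0.0722 to 0.150 ± 0.0446 in mammary gland (SD, n = 8 each). The ratio did not overlap between treatments in pituitary, at 3.47 to 4.37 against 1.43 to 2.49, or in mammary gland, at 0.228 to 0.436 against 0.0933 to 0.214. In hypothalamus it overlapped, at 5.24 to 7.35 against 2.89 to 6.04. With libraries numbered 1 to 3 alone the differences were -0.29, -0.88 and -0.77 in the same order of tissues, in a design of 3 against 3 whose smallest exact permutation p is 0.1. A difference within a library shows unequal change and not that Rbm3 was unchanged.

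**Figure D2:**
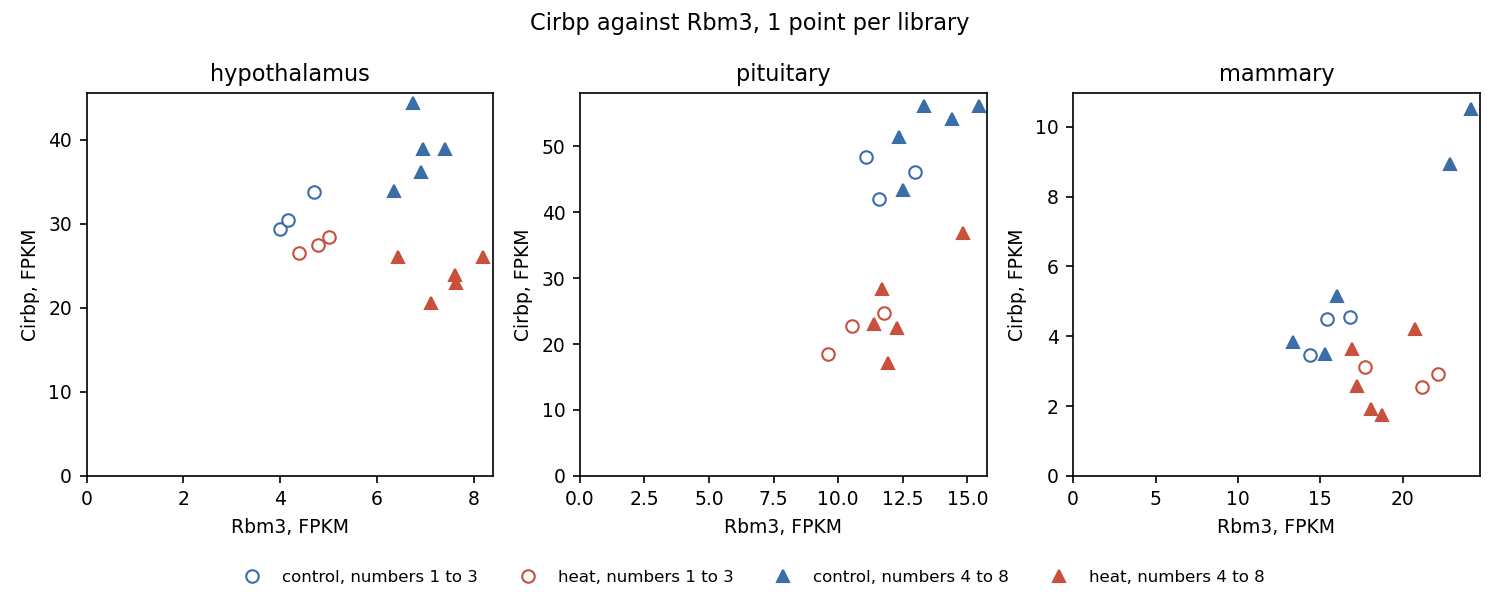
FPKM of Cirbp (vertical) against FPKM of Rbm3 (horizontal), 1 point per library and 1 panel per tissue, both axes from 0 and scaled per panel, with blue for control, red for heat and symbols as for the numbered sets. Red points lie lower at like Rbm3 levels, with the controls above a ratio of 3.47 and heat libraries under 2.49 in pituitary.

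Srsf5 (ENSMUSG00000021134) encodes an SR protein and was the most highly expressed of the 7 genes in every tissue per unit length. In pituitary the control libraries ran from 83.7 FPKM through 102 to 116, and the heat libraries from 46.4 through 64.4 to 83.4. The groups thus did not overlap in deposited FPKM, by a narrow gap of 83.36 in heat library 8 against 83.75 in control library 2. Counted on scaled values, heat lay wholly below control for 0.362% of the genes tested there. Whether the Srsf5 gap holds after scaling was not tested. The mean fell from 99.01 ± 12.5 to 63.5 ± 12.4 FPKM (SD, n = 8 each), a log2 change of -0.63 ± 0.11 (adjusted p = 0.00357, limma). The numbered sets gave -0.65 and -0.62. Cirbp and Srsf5 were the 2 of 7 genes that passed in pituitary, where 534 of 14095 genes, 3.79%, passed in either direction and 1.42% as lower. In the neurointermediate lobe marker list, all 6 of 6 genes had a pituitary mean of at least 1 FPKM in both groups, none at 0 throughout, and their sum ran from 2.91 to 170 FPKM in controls and from 18.8 to 382 with heat. Its median was 116 FPKM in controls and 153 with heat. Control pituitary 1 and heat pituitary 3 were the libraries lowest in that sum. Without them the changes were -0.98 for Cirbp (adjusted p = 0.000938, limma) and -0.61 for Srsf5 (adjusted p = 0.00791, limma). That fit kept heat libraries 4 and 5, whose sums of 288 and 382 FPKM lay above every control. The part of lobe content in these changes was not tested.

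In mammary gland Srsf5 ran from 70.0 FPKM through 75.6 to 130 in controls and from 28.03 through 59.2 to 78.9 with heat. Of the 8 heat libraries 7 lay below every control and the other inside the control range, while controls 4 and 5 again exceeded the rest. The log2 change was -0.65 ± 0.20 with an adjusted p of 0.067 (limma), and it was -0.13 within numbers 1 to 3 and -0.95 within numbers 4 to 8. Without heat library 3 the adjusted p was 0.0431, and in the fit of all 48 libraries 0.00228 (limma). In hypothalamus Srsf5 ran from 51.4 through 68.3 to 74.0 FPKM in controls and from 37.1 through 52.3 to 68.5 with heat, a change of -0.26 ± 0.13 (adjusted p = 0.611, limma). The hypothalamic groups overlapped, although 7 of 8 heat libraries lay below the control median, and the numbered sets gave -0.36 and -0.19. In mammary gland the T and B lymphocyte list had 4 of 8 genes at a mean of at least 1 FPKM in controls and 8 of 8 with heat, none at 0 throughout. Its sum ran from 2.83 to 65.9 FPKM in controls, high in library 5, and from 2.85 to 97.5 with heat, high in libraries 4, 5, 6 and 8. Without those 5 libraries the mammary change of Srsf5 was -0.37 (adjusted p = 0.535, limma) and that of Cirbp was -0.67 (adjusted p = 0.269, limma). The heat libraries left were 1, 2, 3 and 7, of which 1 to 3 belong to the set with the Srsf5 change of -0.13. The parts of lymphocyte content, numbered set and fewer libraries in these values were not tested.

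The 4 CLK kinase genes had higher means with heat in all 3 tissues, and 1 of the 12 changes passed the test. That change was Clk4 (ENSMUSG00000020385) in mammary gland. Controls ran from 6.52 FPKM through 8.14 to 12.8 and heat libraries from 9.42 through 12.1 to 15.03. All 8 heat libraries lay above the control median and 3 of them above every control. The mean rose from 8.96 ± 2.23 to 12.4 ± 1.86 FPKM (SD, n = 8 each), a log2 change of 0.46 ± 0.13 (adjusted p = 0.0487, limma), in a tissue where 668 of 12587 genes, 5.31%, passed in either direction and 2.84% as higher. The call held in 4 of the 16 fits without 1 library, where the adjusted p ran from 0.0192 to 0.0995, and was lost with no filter on low values. The change was 0.66 among numbers 1 to 3 and 0.34 among numbers 4 to 8, and passed in neither alone. Without the 5 libraries high in lymphocyte markers, which leaves heat libraries 1, 2, 3 and 7, it was 0.52 (adjusted p = 0.183, limma).

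Clk4 in hypothalamus ran from 6.26 FPKM through 8.05 to 9.23 in controls and from 6.65 through 10.1 to 12.04 with heat, with 5 heat libraries above every control. Its change there was 0.26 ± 0.11 (adjusted p = 0.447, limma), and in pituitary it was 0.23 ± 0.10 (adjusted p = 0.263, limma), with controls from 10.4 through 12.04 to 14.5 FPKM and heat libraries from 11.1 through 14.9 to 18.0. When the numbered sets were given a term of their own, the same changes had standard errors of 0.059 and 0.062 and adjusted p-values of 0.0249 and 0.0237 (limma), against backgrounds of 2.67% and 7.27% of genes passing as higher in that fit. Numbers 1 to 3 and 4 to 8 gave 0.15 and 0.32 in hypothalamus, and 0.14 and 0.29 in pituitary.

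Clk1 (ENSMUSG00000026034), the best studied of the CLK kinases, ran in pituitary from 11.4 FPKM through 13.9 to 17.2 in controls and from 14.5 through 17.9 to 22.2 with heat. All 8 heat libraries lay above the control median and 4 above every control. Its means were 14.2 ± 2.16 and 18.3 ± 3.26 FPKM (SD, n = 8 each), a log2 change of 0.35 ± 0.11 (adjusted p = 0.0802, limma), which became 0.00406 with the term for the numbered sets. With that term 4 of the 7 genes passed in pituitary, Cirbp and Srsf5 as lower and Clk1 and Clk4 as higher, and 12.2% of all genes passed; in hypothalamus 2 of 7 did, Cirbp and Clk4, against 3.48% of all genes, and in the mammary gland 1 of 7, Clk4, against 7.3%. Numbers 4 to 8 alone gave 2, 4 and 0 of the 7, against 3.25, 9.93 and 2.89% of all genes in the same order. Those were Cirbp and Clk4 in hypothalamus, and Cirbp, Srsf5, Clk1 and Clk2 in pituitary, where Clk4 had an adjusted p of 0.0605 (limma). Blocking on the replicate number gave, in pituitary, Cirbp, Srsf5, Clk1 and Clk3 (limma), where 1213 of 14095 genes passed. The replicate numbers did not meet the rule for pairing that is given at the end. In hypothalamus Clk1 ran from 7.27 through 8.55 to 9.78 FPKM in controls and from 7.17 through 9.75 to 12.9 with heat, a change of 0.23 ± 0.11 (adjusted p = 0.585, limma). In mammary gland it ran from 7.15 through 9.16 to 16.04 FPKM in controls and from 9.08 through 12.4 to 14.5 with heat, a change of 0.32 ± 0.14 (adjusted p = 0.189, limma). Control mammary library 5 was the highest of all there; without it the change was 0.42 (adjusted p = 0.0389, limma). Numbers 1 to 3 and 4 to 8 gave 0.40 and 0.27 for Clk1 in mammary gland; the pituitary had 0.31 and 0.38 and the hypothalamus 0.20 and 0.24.

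Clk2 (ENSMUSG00000068917) and Clk3 (ENSMUSG00000032316), the other CLK kinase genes, passed in no tissue in the fit of each tissue without further terms. Clk2 passed in pituitary with numbers 4 to 8 alone (adjusted p = 0.0445, limma), and with the set term once the 2 libraries apart in lobe markers were left out (adjusted p = 0.0192, limma). Clk3 passed in pituitary with the replicate block (adjusted p = 0.0342, limma) and in mammary gland by limma-voom with the set term (adjusted p = 0.0408). Clk2 changed by 0.07 ± 0.15 in hypothalamus, 0.30 ± 0.19 in pituitary and 0.25 ± 0.14 in mammary gland, with adjusted p-values of 0.999, 0.457 and 0.306 (limma). Numbers 1 to 3 and 4 to 8 gave 0.57 and 0.06 for Clk2 in mammary gland; the pituitary had 0.13 and 0.40 and the hypothalamus 0.10 and 0.06. Its pituitary heat libraries were the most spread of any CLK group, from 7.20 FPKM through 14.4 to 23.2, against 7.67 through 11.8 to 13.7 in controls. In hypothalamus Clk2 ran from 4.09 through 6.67 to 8.00 FPKM in controls and from 4.58 through 6.42 to 9.16 with heat, and in mammary gland from 5.50 through 7.31 to 10.97 and from 7.27 through 8.84 to 12.1. Clk3 changed by 0.06 ± 0.20, 0.23 ± 0.17 and 0.22 ± 0.10 in the same order of tissues, with adjusted p-values of 0.999, 0.531 and 0.211 (limma). Its numbered sets gave 0.10 and 0.03 in hypothalamus, 0.20 and 0.24 in mammary gland and 0.10 and 0.31 in pituitary. Clk3 ran from 4.67 through 8.69 to 10.1 FPKM in hypothalamic controls and from 4.75 through 8.21 to 12.3 with heat, from 5.37 through 8.30 to 10.9 and from 5.97 through 10.1 to 14.6 in pituitary, and from 8.88 through 10.0 to 13.3 and from 9.52 through 12.5 to 14.5 in mammary gland. Of the exon bases of Clk3, 15.2% overlapped Edc3 on the other strand in GENCODE M21, and since the strandedness of the counting is not given in the sources used here, reads of the pair cannot be told apart there.

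**Figure D3:**
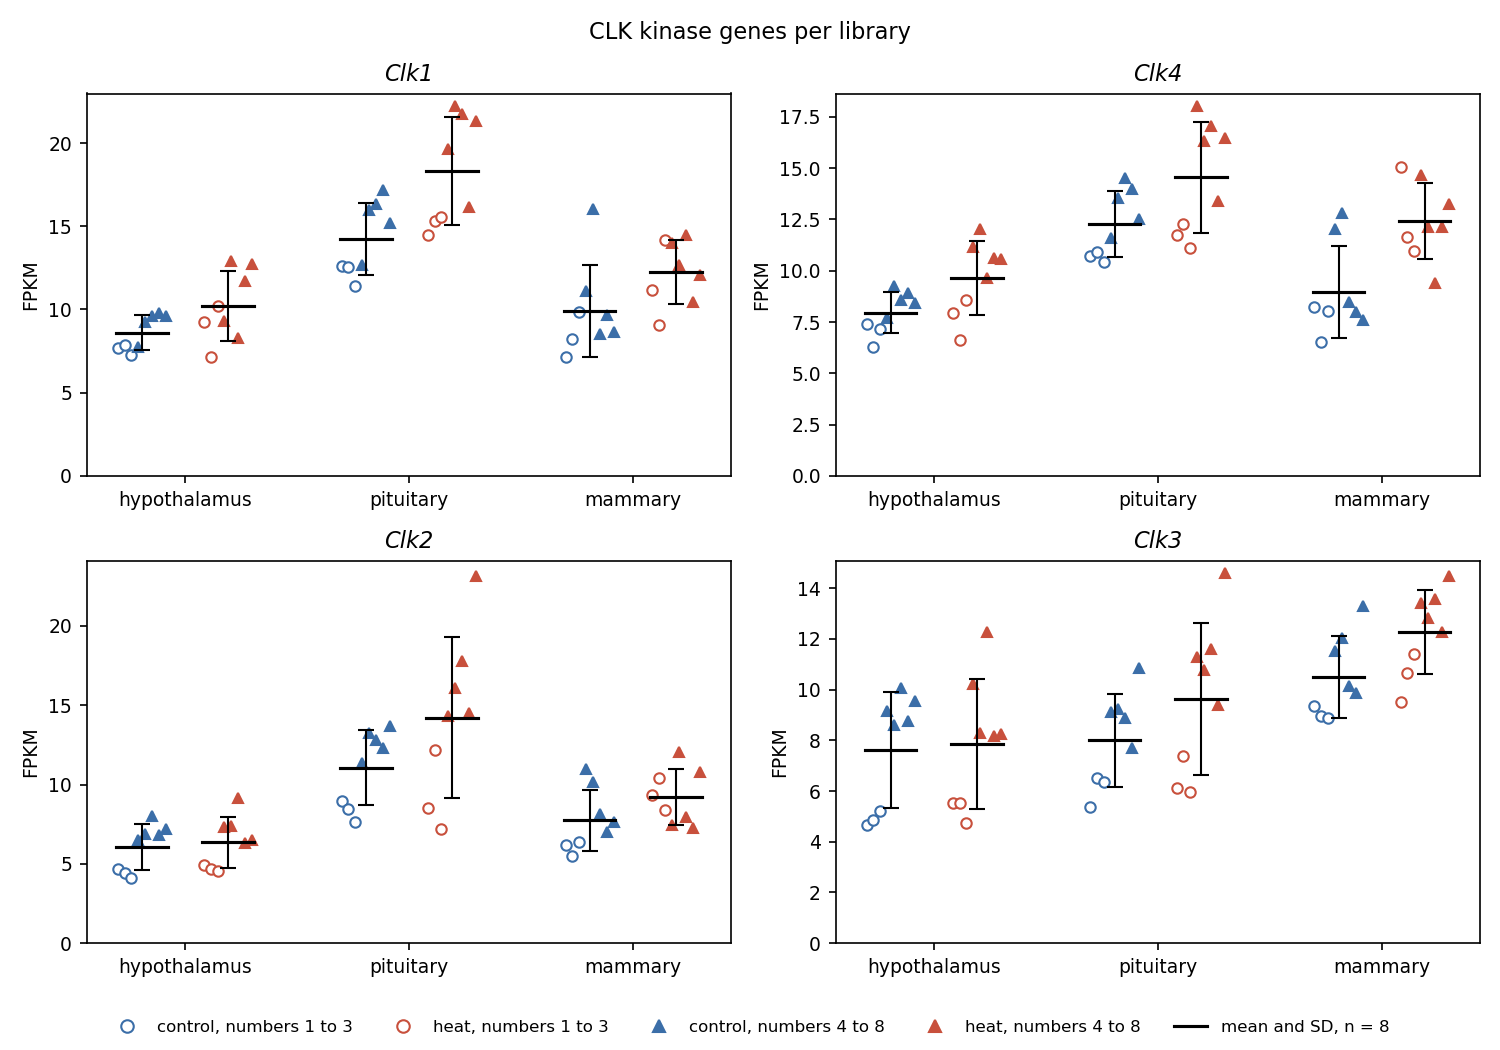
FPKM of Clk1, Clk4, Clk2 and Clk3 in each library, vertical axes from 0 and scaled per gene, by tissue, with blue for control, red for heat, open circles for libraries numbered 1 to 3, triangles for 4 to 8, and bars for the mean and SD of 8 libraries. Heat means are above control means throughout, with wide overlap, and in hypothalamus the open circles of Clk2 and Clk3 sit under all triangles.

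Whether the CLK kinase genes changed unequally was tested for Clk4 minus Clk2 within libraries. The difference moved with heat by 0.18 in hypothalamus (exact 2-sided permutation p = 0.0984, adjusted 0.118), by -0.07 in pituitary (exact permutation p = 0.624, adjusted 0.624) and by 0.21 in mammary gland (exact permutation p = 0.0968, adjusted 0.118). None passed, which does not show that the kinases moved alike.

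**Figure D4:**
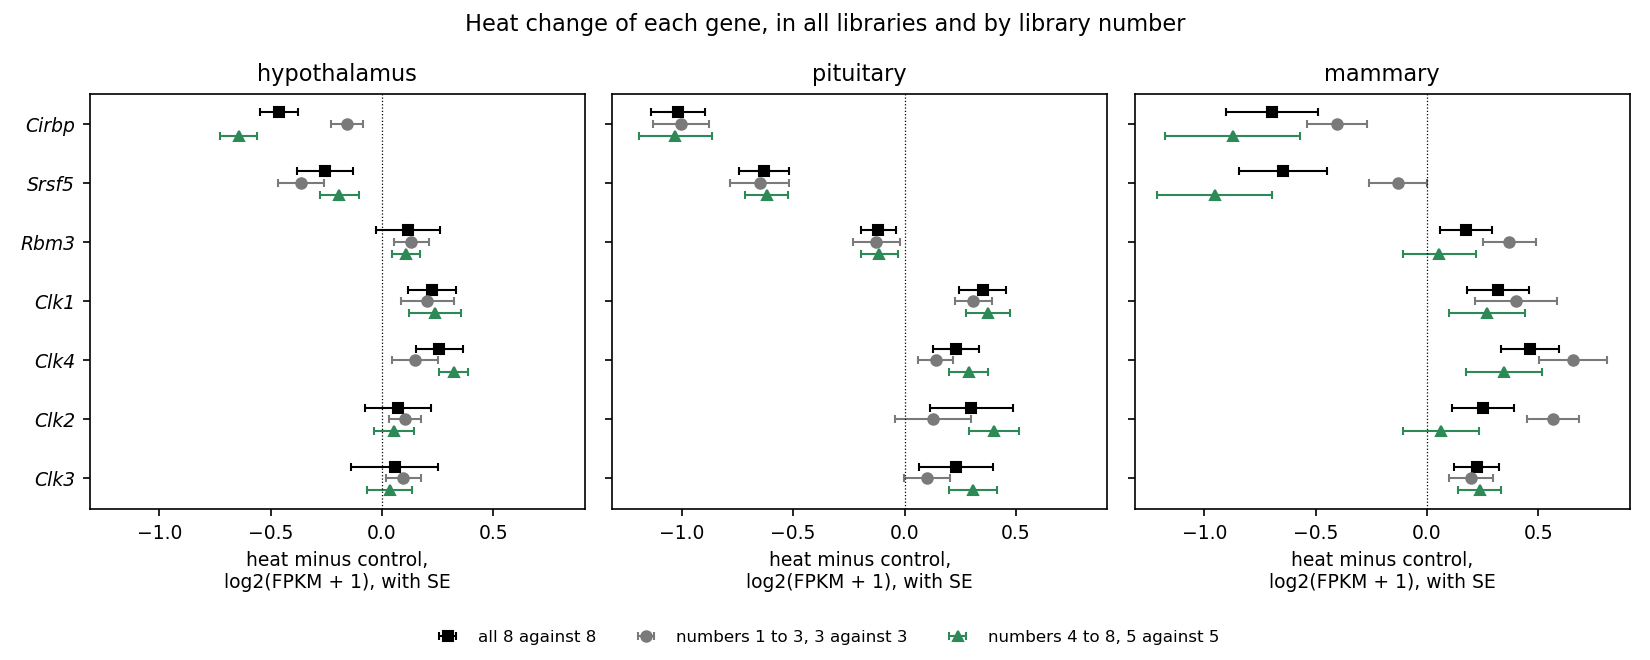
Heat minus control change of each gene in log2(FPKM + 1) with its SE, 1 panel per tissue on a shared horizontal axis, for all 8 against 8 libraries (black squares), numbers 1 to 3 (grey circles, 3 against 3) and numbers 4 to 8 (green triangles, 5 against 5). Cirbp and Srsf5 lie left of 0 and the CLK kinase genes right of 0 in each panel and set; Cirbp in hypothalamus is at -0.16 in numbers 1 to 3 and -0.64 in numbers 4 to 8.

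The heat change of none of the 7 genes differed between tissues past the threshold. In the fit of all 48 libraries 316 of 14884 genes, 2.12%, passed the F test of heat by tissue, whereas the adjusted p was 0.346 for Cirbp, the lowest of the 7, and 0.971 for Clk1, the highest (limma). At an unadjusted p under 0.05 it was 1 of the 7, Cirbp, at 0.0407 (limma). The pituitary minus hypothalamus contrast of the Cirbp change was -0.55 ± 0.21 in log2 (adjusted p = 0.701, limma), a contrast that 0.155% of all genes passed. With terms for the numbered sets 7.43% of all genes and again none of the 7 passed the F test. A call in pituitary and none in another tissue is therefore no test of a difference between them.

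Levels per length at 25 °C were also compared between tissues, in FPKM as deposited. Their library denominators did not follow recovered depth between tissues. In control library 8 they were 6620180 in mammary gland, 27316900 in pituitary and 27115500 in hypothalamus. Recovered fragments were 14762425, 16378739 and 19859086 in that order, of which Rbm3 held 416, 1588 and 810. Clk3 held 744, 2506 and 2188 of them, Srsf5 1854, 10854 and 7749, and Clk2 267, 1982 and 1037, each lowest in mammary gland. The orders given for Rbm3, Clk3 and Srsf5 thus hold for the deposited scaling only, as do calls of Clk2 as higher in mammary gland than hypothalamus. Cirbp, Clk1 and Clk4 were not compared by recovered fragments. Cirbp was highest in pituitary, at 49.7 FPKM, then hypothalamus, at 35.7, then mammary gland, at 5.55, and all 3 contrasts passed, with a mammary minus pituitary difference of -3.03 ± 0.15 in log2. Rbm3 had another order, highest in mammary gland at 17.3 FPKM, then pituitary at 13.0 and hypothalamus at 5.90, and all 3 contrasts passed, with mammary minus hypothalamus at 1.41 ± 0.12. Cirbp thus exceeded Rbm3 in hypothalamus and pituitary and lay below it in mammary gland. Srsf5 was lowest in hypothalamus, at 64.8 FPKM, and its 99.01 in pituitary and 88.6 in mammary gland did not differ past the threshold (adjusted p = 0.247, limma). Clk1, Clk2 and Clk4 were highest in pituitary, at 14.2, 11.1 and 12.3 FPKM, and their levels in hypothalamus and mammary gland did not pass against each other in this fit. Clk2 did pass there, as higher in mammary gland, with set terms, with the replicate block and without control mammary library 2. Clk3 was highest in mammary gland, at 10.5 FPKM, and its 8.01 in pituitary and 7.61 in hypothalamus did not pass against each other (adjusted p = 0.66, limma). In all, 6 of 7 genes passed for pituitary against hypothalamus, 4 for mammary gland against hypothalamus and 6 for mammary gland against pituitary, where 71.5%, 83% and 79.9% of all genes passed. With quantile normalization over the 48 libraries the mammary minus pituitary difference became 0.08 for Rbm3 and 0.22 for Clk3, which no longer passed, and -1.01 for Srsf5, which did. With it, mammary gland minus hypothalamus passed for 6 of 7: Clk1 (0.25), Clk2 (0.45) and Clk4 (0.24) now passed, and Srsf5 (0.08) did not. The mammary minus pituitary call of Clk3 was also lost with no filter on low values and without control mammary library 4, 5 or 8 or control pituitary library 1, 2, 3 or 7.

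Few other genes of the pathway passed the test. Among 12 SR and TRA2 splicing factor genes besides Srsf5, none passed in hypothalamus or pituitary, with median log2 changes of 0.06 and -0.05 against 0.00 over all genes in each; 2 passed in each at an unadjusted p under 0.05 (limma), and limma-voom and the exact Wilcoxon test called none. With the set term Srsf9 (adjusted p = 0.0456, limma) and Tra2b (adjusted p = 0.00792, limma) passed as higher in hypothalamus and Srsf2 (adjusted p = 0.0135, limma) as lower in pituitary. In mammary gland 11 were tested, 2 rose and 1 fell, where 2.84% of all genes passed as higher and 2.47% as lower; their median was 0.03 against -0.01 over all genes, limma-voom called 4 and the exact Wilcoxon test 2. With the set term 3 passed there as higher, Srsf7 besides the others (adjusted p = 0.0302, limma), and 1 as lower. Tra2a, which encodes a splicing enhancer-binding protein, rose from 4.92 ± 0.66 to 9.09 ± 1.00 FPKM (log2 change 0.79 ± 0.086, adjusted p = 0.000146, limma; SD, n = 8 each). Its relative Tra2b rose from 10.2 ± 1.74 to 15.7 ± 1.55 FPKM (0.60 ± 0.098, adjusted p = 0.00216, limma). Srsf3, which encodes the smallest SR protein, fell from 20.9 ± 3.40 to 15.6 ± 1.495 FPKM (-0.37 ± 0.097, adjusted p = 0.0343, limma). In pituitary Srsf2 came nearest, at -0.24 ± 0.066 (adjusted p = 0.0529, limma), and in hypothalamus Tra2b did, at 0.22 ± 0.093 (adjusted p = 0.46, limma).

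**Figure D5:**
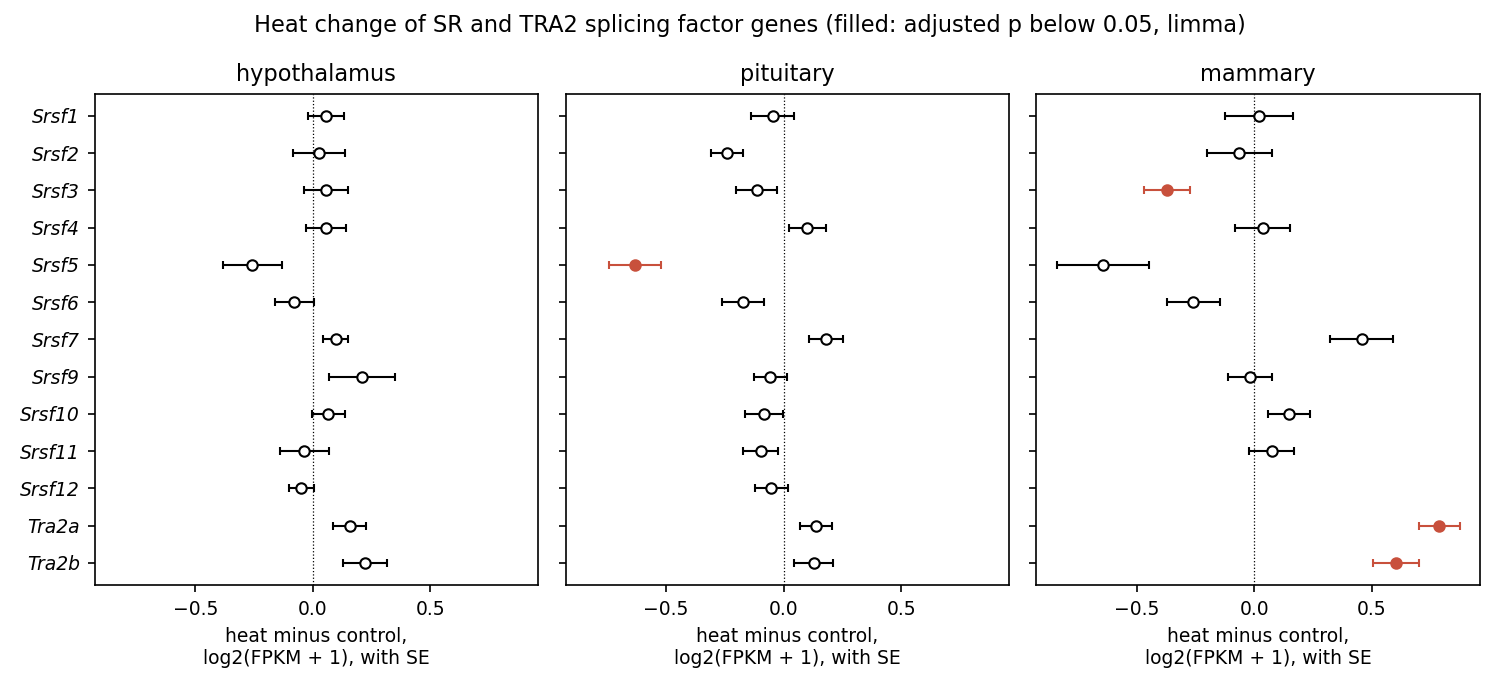
Heat minus control change of Srsf5 and the SR and TRA2 splicing factor genes in log2(FPKM + 1) with its SE, 1 panel per tissue on a shared horizontal axis; filled red points passed an adjusted p of 0.05 (limma), and Srsf12 was not tested in mammary gland. Srsf5 is the only filled point in pituitary, and Tra2a, Tra2b and Srsf3 are filled in mammary gland.

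Of 8 other enzymes and the importer acting on SR proteins (Srpk1, Srpk2, Srpk3, Dyrk1a, Dyrk1b, Prpf4b, Ppp1ca and Tnpo3), 8, 7 and 7 were tested in hypothalamus, pituitary and mammary gland, and none passed by limma, limma-voom or the exact Wilcoxon test, and at an unadjusted p under 0.05 there were 0, 0 and 1. With the set term Dyrk1b passed as higher in pituitary (adjusted p = 0.0388, limma). Their medians were 0.03, 0.09 and 0.06. The smallest adjusted p was that of Dyrk1a in hypothalamus, 0.753 at 0.08, and in mammary gland, 0.137 at 0.27, and that of Dyrk1b in pituitary, 0.371 at 0.23 (limma). Of 7 genes that regulate Cirbp or Rbm3 or act on their proteins, 6, 7 and 7 were tested and none passed by limma, limma-voom or the exact Wilcoxon test, and none had an unadjusted p under 0.05. Their medians were 0.04, 0.05 and 0.06. Tnpo1, the importin that carries CIRBP into the nucleus, had a change of 0.23 in hypothalamus (adjusted p = 0.645, limma), Hsf1, the heat shock transcription factor, 0.24 in pituitary (adjusted p = 0.557, limma), and the ion channel gene Trpv4 0.18 in mammary gland (adjusted p = 0.477, limma). Of 7 transcripts reported as targets of CIRBP or RBM3, 6 were tested in each tissue and none passed by limma or the exact Wilcoxon test, with medians of 0.02, -0.01 and -0.08. At an unadjusted p under 0.05 there was 1, in mammary gland (limma), and limma-voom called 1 there. Rpa2 changed by 0.13 in hypothalamus (adjusted p = 0.572, limma) and 0.44 in mammary gland (adjusted p = 0.071, limma), and Txn1 by -0.17 in pituitary (adjusted p = 0.319, limma).

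The genes most like each of the 7 over the 48 libraries were found by Pearson correlation of log2(FPKM + 1) after centring each tissue on its mean, among 8575 named genes tested in all tissues. These correlations share libraries, depth, treatment and numbered set, and are descriptions. Among the genes most like Cirbp were Srsf5 (r = 0.82) and Mir22hg (0.80), and among those most like Srsf5 were Srsf6 (0.89) and Neat1 (0.84). When each treatment group was centred too, the likeness of Cirbp to Srsf5 was 0.64. Rbm3 was most like Srsf11 (0.80), Snrnp70 (0.78) and Sirt4 (0.78), while its correlation with Cirbp was 0.28, and 0.53 when each treatment group was centred too. Clk1 was most like Pan3 (0.82), Mdm4 (0.78) and Clk4 (0.77), and Clk4 most like Cep95 (0.86), Prpf39 (0.84) and Snrnp48 (0.83). Clk2 was most like Rrnad1 (0.94), Kmt5c (0.93) and Gigyf1 (0.93), and Clk3 most like Gramd1a (0.93), Fam193b (0.93) and Kmt5c (0.93). Clk2 and Clk3 correlated at 0.85 with each other.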

How the data were processed

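Each deposited table holds the FPKM of 1 library as the authors computed them. Their denominators did not follow recovered depth between tissues. Control mammary library 1 had 5330840 for 14907775 recovered fragments, and control pituitary library 1 had 24412100 for 14183226. The submitters' processing notes name HISAT2 2.0.5 for alignment, featureCounts 1.5.0-p3 for counting, DESeq2 1.16.1 and build mm9. GENCODE M21 gene lengths turned 94.7 to 96.9% of values under 50 fragments into whole fragments within 0.02, so depths were recovered and gene coordinates are not given; upstream sequences are from RefSeq GRCm38.p6. Strandedness and the handling of reads aligning to several places are not given in the sources used here.

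Per tissue, each library was scaled by its median ratio to the genes' geometric means, by 0.970 to 1.02. Genes whose mean FPKM reached 1 entered a limma 3.58.1 model (R 4.3.3) of log2(FPKM + 1), with Benjamini-Hochberg adjustment over all genes and a threshold of 0.05. Fold changes on this scale understate changes of low genes. Contrasts between tissues came from 1 fit of all 48 libraries. Exact permutation tests were run in R 4.3.3 and sequence searches in Python 3.11.15. Scripts were tested on simulated data.

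The 7 genes and the gene lists were chosen with earlier results of these data known, as was the split of libraries numbered 1 to 3 and 4 to 8. From each list the text names, per tissue, up to 4 genes past the threshold or the 1 of smallest adjusted p, and for each of the 7 genes its 3 most correlated genes, of which 1 gene is not reported here; Hspa1b was given for every tissue and Gh, Prl, Rbm3-ps and Edc3 were named after their values were seen. Alternatives covered scaling, pseudocount, filter, library sets, pairing, tests, single libraries left out and, chosen after seeing the data, limma-voom on recovered fragments and libraries apart in lobe or lymphocyte markers.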

Additional observations from a re-analysis of the deposited data

Results flagged for a closer look

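Clk1 in control mammary library 5 was flagged because it lay far from the rest of its group: it had 16.04 FPKM, the next highest control had 11.1, and the gap was 0.557 of the group's range (n = 8). It was the only 1 of 42 groups of 8 libraries to be flagged, where chance flags about 1 in 20. The same library was high in lymphocyte markers; the part of these in the Clk1 value was not tested.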

How the results depend on the processing

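Of 636 refits of the 21 heat changes of a gene in a tissue, 586 kept direction and side of the threshold, 24 passed where the reported value did not, 22 no longer passed and 4 turned sign. Those 4 were Clk3 in hypothalamus without control replicate 1, 2 or 3 or heat replicate 6; leaving out 1 library gave it -0.0335 to 0.14. In hypothalamus, 61 genes passed with no filter and 57 with a filter of 5; the fit of 48 libraries gave 19 genes and 0 of the 7. With the term for numbered sets 486 genes and 2 of the 7 passed, with numbers 4 to 8 alone 454 and 2, and with limma-voom and that term 454 and 3. With numbers 1 to 3 alone (3 against 3), 0 genes and 0 of the 7 passed in each tissue. In pituitary, 214 genes passed with a filter of 5, 1721 genes and 4 of the 7 with the set term, 1399 and 4 with numbers 4 to 8, 1709 and 4 with limma-voom and the term, and 1932 and 5 without the libraries apart in lobe markers and with the term. In mammary gland, 411 genes and 0 of the 7 passed with no filter, 364 genes with a filter of 5, 364 and 0 with numbers 4 to 8, 2042 and 3 in the fit of 48 libraries, 1040 and 2 with limma-voom and the term; 47 and 0 without the 5 libraries high in lymphocyte markers and 43 and 0 with the term besides. Mammary genes among the 7 numbered 2 with FPKM as deposited, 2 with quantile normalization and 0 by the exact Wilcoxon test. Leaving out 1 library gave 46 to 126 genes in hypothalamus, 334 to 904 in pituitary (904 without heat replicate 3, 334 without control replicate 5, 336 without heat replicate 4, 340 without heat replicate 5) and 415 to 762 in mammary gland (415 without heat replicate 4, 438 without heat replicate 5), with 1, 2 and 0 to 2 of the 7. For Cirbp minus Rbm3, numbers 1 to 3 alone gave -0.288, -0.877 and -0.774 and adjusted p-values of 0.2. Clk4 minus Clk2 was 0.145 to 0.251, -0.135 to 0.0119 and 0.139 to 0.266 without 1 library in hypothalamus, pituitary and mammary gland, and 0.0105 in pituitary numbers 1 to 3. Heat by tissue gave 563 genes with no filter, 1106 with set terms and 275 to 488 without 1 library (488 without heat mammary replicate 3). The cause of these shifts was not tested.

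Replicate numbers did not meet the rule for pairing control with heat libraries, a correlation above 0.1 in every pair: same-numbered deviations correlated between -0.0997 and 0.336 in mammary gland, between 0.065 and 0.697 in hypothalamus and between -0.0209 and 0.503 in pituitary. Of 8, in the same order, 2, 2 and 1 control libraries correlated best with their own number. Between control hypothalamus and control pituitary all 8 did, at 0.432 to 0.627, a hint from the data and not the design. No other pair of tissues, in control or heat, had all 8 match. Between control pituitary and mammary gland every number but 8 did, and between heat pituitary and mammary gland every number but 3. Numbers 1 to 4 matched between control hypothalamus and mammary gland, and 1, 5, 6, 7 and 8 between heat hypothalamus and mammary gland. Numbers 1, 3, 5 and 7 did so between heat hypothalamus and pituitary. Whether a number marks 1 dam was not tested, and the main fit of all 48 libraries took them as independent. Between heat hypothalamus and heat pituitary, number 8 correlated at 0.0527 with its own number and best with number 2. With the replicate block the hypothalamus had 281 genes and 2 of the 7, the pituitary 1213 and 4, the mammary gland 634 and 1, Clk4 minus Clk2 in hypothalamus stayed at 0.183 with an adjusted p of 0.0352 (exact sign-flip permutation), and heat by tissue gave 763 genes (block correlation 0.215). Depth limits Cirbp in mammary gland most, at 25 fragments in the lowest library; 3 fragments would read there as up to 0.23 FPKM. These floors cover counting error only.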
